A study of Mus musculus with 6 samples.

Results

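The genes described here are 8 components of the phosphoinositide 3-kinase (PI3K)-AKT pathway, taken by symbol from a deposited table of 16244 genes: *Pik3ca*, *Pik3cd*, *Pik3r1*, *Pik3ip1*, *Inpp5d*, *Pdpk1*, *Akt1* and *Akt2*. All 8 were in the table and passed the filter on low values, a mean of at least 10 normalized reads over the 6 RNA-seq libraries. Naive CD4+ T cells, obtained from the spleens of C57BL/6 mice by a negative selection that depletes other cell types, were activated with anti-CD3 and anti-CD28 and polarized for 3 days under pathogenic Th17 conditions, with IL-6, IL-1β and IL-23. The methods add TGF-β, anti-IL-4 and anti-IFN-γ to these conditions, whereas the series' design text names only the 3 cytokines. WT libraries (n = 3) came from mice with unaltered RORγt, and RORγt N275D libraries (n = 3, labelled Mut) from knock-in mice that carry an Asn-to-Asp change in the ligand-binding domain of RORγt, the transcription factor that directs Th17 differentiation. No other allele or agent differed between the groups in the sources used here. Per the methods, mice were between 6 and 12 weeks old and matched for age and sex. The WT mice were bought from the Jackson Laboratory and the knock-in mice were obtained separately, so a difference between colonies cannot be told apart from the allele. Whether the knock-in mice behind these libraries were homozygous, and whether cells of several mice were pooled, is not given in the sources used here. The question behind the comparison was what the mutation changes in the transcriptome of inflammatory Th17 cells.

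In T cells, class I PI3K is recruited to activated antigen, costimulatory and cytokine receptors, where it phosphorylates the membrane lipid PIP2 to PIP3. PIP3 brings PDK1 and AKT to the membrane, PDK1 phosphorylates AKT, and AKT then acts on substrates such as FOXO1, TSC2 and GSK3 that control metabolism, growth, survival and trafficking. The lipid phosphatase SHIP1 removes the 5-phosphate of PIP3, and PIK3IP1 is a transmembrane protein that holds the PI3K catalytic subunit in check. These steps act on lipids and proteins, whereas RNA-seq measures only the transcripts of the components.

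Both inhibitors among the 8 genes were higher in RORγt N275D Th17 cells, and 3 of the enzymes were lower. *Pik3ip1* moved most, at 1.86-fold the WT level (95% interval 1.51 to 2.30), and *Inpp5d*, which encodes SHIP1, was 1.17-fold higher. *Akt2*, *Pik3cd* and *Akt1* were lower by smaller amounts, at 0.836, 0.862 and 0.923 times the WT level, and the *Akt1* call was lost under some settings. The differences of *Pik3ca*, *Pik3r1* and *Pdpk1* did not pass the test. The values are normalized reads, that is, reads per gene as the authors counted them, scaled by a factor of its own for each library. They were tested as log2(normalized reads + 1) with limma over all 11908 genes that passed the filter, and fold changes on this scale slightly understate those of low genes. Genes were called at a Benjamini-Hochberg adjusted p under 0.05.

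Over all genes tested, 50.9% were called, 24.7% as higher and 26.1% as lower in RORγt N275D cells. Of the 8 genes, 5 were called, 2 higher and 3 lower, so their share of calls lies near this background. The ranges of the genotypes did not overlap for 5 of the 8 genes, the same 5 that were called, with 2 higher and 3 lower. Such separation was seen in 57.7% of all genes tested, 28.1% higher and 29.6% lower. None of the 8 was called at 2-fold by limma, edgeR or DESeq2, against 3.59% of all genes by limma (2.73% higher), and 5 had an unadjusted p under 0.05 by limma. The median absolute log2 fold change was 0.17 over the 8 genes and 0.19 over all genes. With signs kept, the medians were 0.02 and -0.00259. The labels number the samples but do not say that the libraries came from separate mice or cultures, and p-values measure the spread between these libraries. In bulk RNA, a difference in the share of cells of one type and a difference in RNA per cell cannot be told apart.

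**Figure D1:**
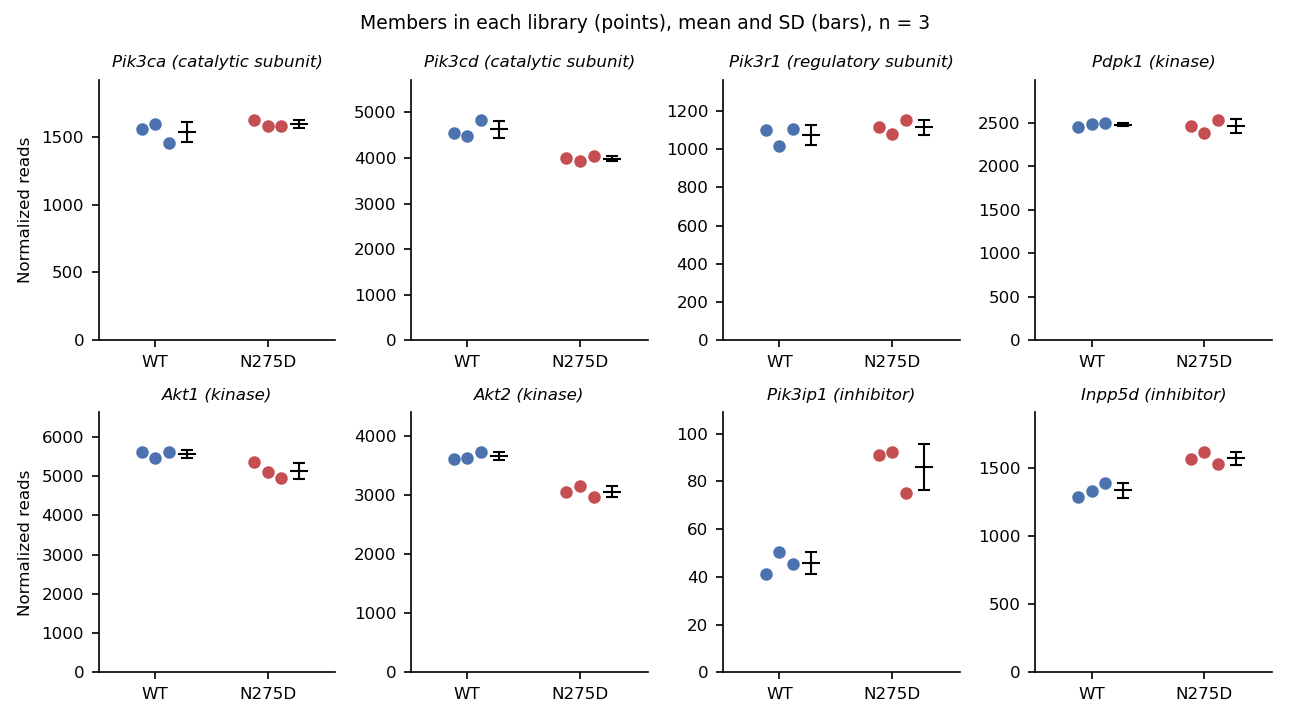
Normalized reads of each of the 8 genes (vertical axes from 0) in the 3 WT (blue) and 3 RORγt N275D (red) libraries, with 1 point per library and a bar for the mean ± SD beside each group. The *Pik3ip1* and *Inpp5d* points of the mutant lie above those of WT, the *Pik3cd*, *Akt1* and *Akt2* points lie below them, and those of *Pik3ca*, *Pik3r1* and *Pdpk1* overlap.

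The inhibitors are given first. *Pik3ip1* (gene 216505, mm10 chromosome 11, 3319241 to 3342971) encodes the membrane inhibitor of PI3K, which is abundant in resting T cells and lost on activation. It had 41.4, 50.4 and 45.2 normalized reads in WT libraries 1 to 3 and 90.8, 92.3 and 75.1 in RORγt N275D libraries 1 to 3. The lowest mutant library lay 24.6 normalized reads above the highest WT library. WT averaged 45.7 ± 4.55 and the mutant 86.1 ± 9.56 (mean ± SD, n = 3 each). This gave a log2 fold change of 0.90 (standard error 0.14, limma adjusted p = 7.75e-05), which ranked 540 among the 11908 genes by absolute size. These values rest on few reads, 41 to 92 per library. On the opposite strand, the exons of *Gm12592* share 91 bases with those of *Pik3ip1*, and the strand setting used in counting is not given in the sources used here, so reads from these bases cannot be assigned with certainty.

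*Inpp5d* (gene 16331, chromosome 1, 87620312 to 87720510) encodes SHIP1, the PIP3 phosphatase of blood cells. Its level was 1281, 1331 and 1390 normalized reads in the WT libraries and 1560, 1614 and 1525 in the mutant libraries. The groups did not overlap, and the gap between them was 135 normalized reads. WT averaged 1334 ± 54.6 and the mutant 1566 ± 45.0 (mean ± SD, n = 3 each), for a log2 fold change of 0.23 (standard error 0.05, limma adjusted p = 0.000634). Both inhibitors were thus higher in 3 of 3 mutant libraries than in any WT library, by amounts that differed: the 95% intervals of the log2 fold changes, 0.59 to 1.20 for *Pik3ip1* and 0.13 to 0.33 for *Inpp5d*, do not meet.

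Promoter windows of the 8 genes were read from RefSeq (GRCm38.p6, the assembly of mm10), as the 250 bases before each transcription start that the RefSeq table used here gives. The 8 genes have 16 such windows. They were searched on both strands for the core of the hypoxia response element, in its 2 common forms, spelled ACGTG and, with another first base, GCGTG. The search also covered the half-site of the ROR response element, spelled AGGTCA, and the forkhead factor binding site, spelled GTAAACA. The 2 forms of the hypoxia element cannot match at the same place on a strand, but a palindromic E-box would be matched by the first form on both strands. The *Inpp5d* window is shown because this gene was higher, with any match in capitals and all else in lower case, 5′ to 3′.
Inpp5d, chr1:87620062-87620311, plus strand: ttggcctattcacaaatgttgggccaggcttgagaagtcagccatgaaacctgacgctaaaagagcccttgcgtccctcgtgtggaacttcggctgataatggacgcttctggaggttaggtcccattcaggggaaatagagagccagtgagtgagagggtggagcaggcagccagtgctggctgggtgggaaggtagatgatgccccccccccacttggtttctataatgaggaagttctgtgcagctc
The *Inpp5d* window held none of the 4 motifs. For *Pik3ip1*, the RefSeq table gives a window before 1 transcript start, chr11:3330481-3330730 on the plus strand. This start lies inside the RefSeq span of the gene given above, so it is not the outermost one, and the window overlaps an exon in the GENCODE annotation, so its letters are not printed. It held 1 match, GCGTG on the reverse strand, from 108 to 104 bases before that start. A match is a run of letters and does not show binding.

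The kinases downstream of PI3K were lower or passed no test. *Akt2* (gene 11652, chromosome 7, 27591552 to 27640826) encodes the AKT isoform best known for insulin-stimulated glucose uptake. WT libraries had 3605, 3621 and 3723 normalized reads and mutant libraries 3041, 3148 and 2964, with a gap of 457 between the groups. The mean ± SD (n = 3 each) went from 3650 ± 63.7 to 3051 ± 92.6, which is a log2 fold change of -0.26 (standard error 0.04, limma adjusted p = 4.05e-05).

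*Akt1* (gene 11651, chromosome 12, 112653821 to 112674884) encodes the broadly expressed isoform linked to growth and survival. It had 5615, 5448 and 5609 normalized reads in WT and 5348, 5091 and 4956 in mutant libraries. The groups did not overlap, but mutant library 1 lay only 100 normalized reads below the lowest WT library. The mean ± SD (n = 3 each) was 5557 ± 94.5 for WT against 5132 ± 199 for the mutant, or -0.12 as a log2 fold change (standard error 0.04, limma adjusted p = 0.0177). This call was not stable. Quantile normalization gave a log2 fold change of -0.02 (limma adjusted p = 0.691), and the call was also lost without a trended prior (limma adjusted p = 0.0804). Without WT library 1, mutant library 2 or mutant library 3, the limma adjusted p was 0.0575, 0.0713 or 0.103.

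*Pdpk1* (gene 18607, chromosome 17, 24073680 to 24155619) encodes phosphoinositide-dependent kinase 1, the kinase that phosphorylates AKT in its activation loop. Its values were 2456, 2484 and 2494 normalized reads in WT and 2465, 2377 and 2534 in mutant libraries, with the lowest and the highest of the 6 both in the mutant group. The mean ± SD (n = 3 each) was 2478 ± 19.8 for WT against 2459 ± 79.0 for the mutant. The log2 fold change was -0.01 (95% interval -0.10 to 0.07, limma adjusted p = 0.829), so the interval leaves out changes beyond these bounds in either direction. *Pdk1*, a different gene whose product, pyruvate dehydrogenase kinase 1, shares the protein name PDK1, had 2229, 2223 and 2056 normalized reads in WT and 2821, 2731 and 2849 in mutant libraries. Its log2 fold change was 0.37 (standard error 0.04, limma adjusted p = 3.33e-06), and the symbols must therefore be kept apart.

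Promoter windows of the AKT isoforms are shown because both genes were lower. Where a gene has several windows, the one before its outermost start is printed.
Akt2, chr7:27591302-27591551, plus strand: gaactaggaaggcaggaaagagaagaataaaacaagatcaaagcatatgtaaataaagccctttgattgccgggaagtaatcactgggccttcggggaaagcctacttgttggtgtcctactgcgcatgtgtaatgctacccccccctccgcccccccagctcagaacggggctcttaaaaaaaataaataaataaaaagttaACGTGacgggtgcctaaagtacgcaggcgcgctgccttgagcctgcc
Akt1, chr12:112674885-112675134, minus strand: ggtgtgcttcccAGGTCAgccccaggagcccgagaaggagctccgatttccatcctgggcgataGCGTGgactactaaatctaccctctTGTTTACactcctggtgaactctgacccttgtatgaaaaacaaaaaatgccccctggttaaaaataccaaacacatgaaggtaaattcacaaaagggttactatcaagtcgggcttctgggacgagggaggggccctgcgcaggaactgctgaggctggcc
The *Akt2* window held ACGTG from 47 to 43 bases before the start. The *Akt1* window held 3 matches, AGGTCA at 238 to 233, GCGTG at 186 to 182 and GTAAACA on the reverse strand at 161 to 155 bases before the start. Of the 16 windows of the 8 genes, 8 held ACGTG or GCGTG, 2 held AGGTCA and 1 held GTAAACA. Among all 32851 windows of this length, ACGTG or GCGTG was in 38.6%, AGGTCA in 14.0% and GTAAACA in 3.17%. Windows with either form of the hypoxia element belonged to genes that were higher (*Pik3ip1*), lower (*Akt1*, *Akt2* and *Pik3cd*) and not called (*Pik3ca* and *Pik3r1*).

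Of the PI3K subunits themselves, the leukocyte-enriched catalytic subunit was lower. *Pik3cd* (gene 18707, chromosome 4, 149649168 to 149702566) encodes p110δ, the main class I catalytic subunit in T cell receptor and costimulatory signaling. It had 4557, 4489 and 4841 normalized reads in WT and 3993, 3926 and 4039 in mutant libraries. All mutant libraries lay below all WT libraries, with a gap of 450 normalized reads. WT averaged 4629 ± 187 and the mutant 3986 ± 57.2 (mean ± SD, n = 3 each), which corresponds to a log2 fold change of -0.22 (standard error 0.04, limma adjusted p = 0.000241).

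*Pik3ca* (gene 18706, chromosome 3, 32397065 to 32466112) encodes p110α, the catalytic subunit present in most cell types. It had 1557, 1598 and 1455 normalized reads in WT and 1628, 1580 and 1579 in mutant libraries, and the groups overlapped. The log2 fold change was 0.06 (95% interval -0.04 to 0.15, limma adjusted p = 0.337). *Pik3r1* (gene 18708, chromosome 13, 101680761 to 101768217) encodes the p85α family of regulatory subunits, which stabilize the catalytic subunits and bind phosphorylated receptors. It had 1100, 1016 and 1106 normalized reads in WT and 1114, 1077 and 1154 in mutant libraries, again with overlap. The log2 fold change was 0.05 (95% interval -0.05 to 0.16, limma adjusted p = 0.390). For both genes the interval leaves out rises above its upper bound, and neither interval shows that the genotypes were alike.

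**Figure D2:**
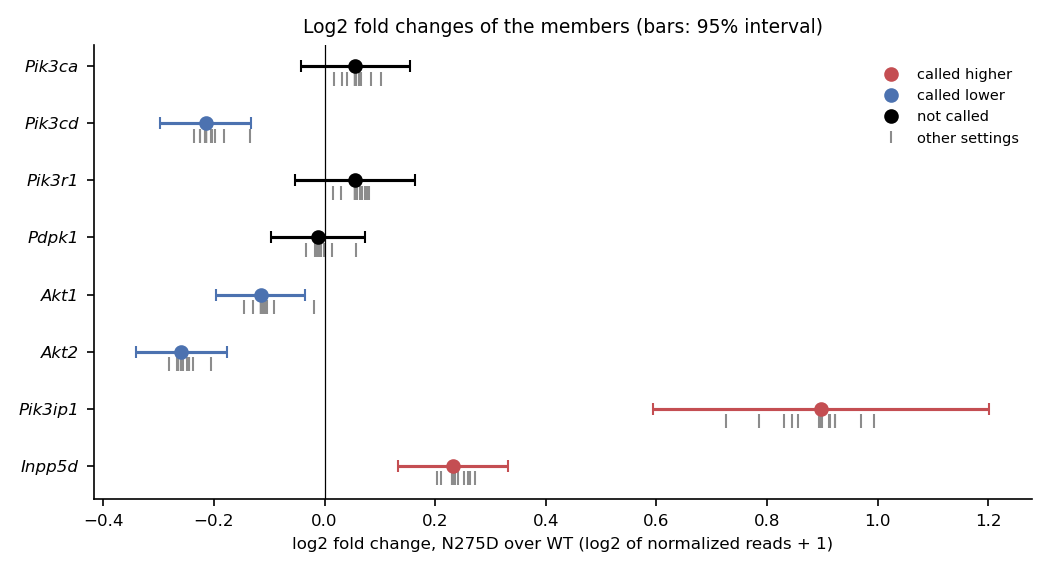
Log2 fold changes (RORγt N275D over WT, on log2 of normalized reads + 1) of the 8 genes by limma, with 95% intervals as horizontal bars and the values under each alternative setting as short grey ticks. *Pik3ip1* lies at 0.90, *Inpp5d* at 0.23, and *Pik3cd*, *Akt1* and *Akt2* lie left of 0, where 1 tick of *Akt1*, quantile normalization, comes to -0.02 and 2 ticks of *Pdpk1* cross to the other side of 0.

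To compare genes with each other, normalized reads were divided by the length of the union of protein-coding exons in kilobases. On this scale, *Akt1* had the highest level among the 8 genes in WT cells, 1797 ± 30.6 (SD, n = 3), followed by *Pik3cd* at 814 ± 32.8 and *Akt2* at 609 ± 10.6. *Pdpk1* at 323 ± 2.58, *Inpp5d* at 260 ± 10.6, *Pik3ca* at 169 ± 8.14 and *Pik3r1* at 138 ± 6.48 came next. *Pik3ip1* was far below the rest, at 14.0 ± 1.40 normalized reads per kilobase. Every pair of neighbours in this order was separated in WT, with no overlap between their libraries. The order of the means was the same in RORγt N275D cells, where *Pdpk1* (321 ± 10.3) and *Inpp5d* (305 ± 8.77) no longer differed beyond their spread. In mutant library 2, *Inpp5d* was at 315 and *Pdpk1* at 310 normalized reads per kilobase, the reverse of their order in the other libraries. *Pik3ip1* reached 26.5 ± 2.94 in the mutant and stayed the lowest of the 8.

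Ratios within a library do not depend on its scaling factor. The ratio of *Akt1* to *Akt2* normalized reads was 1.557, 1.504 and 1.507 in WT and 1.759, 1.617 and 1.672 in mutant libraries, a difference of 0.14 on the log2 scale. The ratio of *Pik3cd* to *Pik3ca* was 2.93, 2.81 and 3.33 in WT and 2.45, 2.48 and 2.56 in mutant libraries, a log2 difference of -0.27. *Pik3ca* and *Pik3cd* together, over *Pik3r1*, gave 5.56, 5.99 and 5.69 in WT and 5.05, 5.11 and 4.87 in mutant libraries. The log2 difference was -0.20. This ratio leaves out *Pik3cb*, another class IA catalytic gene, and the regulatory genes other than *Pik3r1*. In all 3 ratios the groups did not overlap, and the two-sided exact permutation test gave p = 0.1 for each, the smallest value it can give with 3 libraries against 3 and unchanged by Benjamini-Hochberg adjustment over the 3. The inhibitors *Pik3ip1* and *Inpp5d* were also set against the kinases *Pdpk1*, *Akt1* and *Akt2*, each gene taken relative to its mean over the 6 libraries. This ratio was 0.726, 0.813 and 0.778 in WT and 1.27, 1.32 and 1.16 in mutant libraries, a log2 difference of 0.69. It is a description, since it combines genes whose differences are given above. Both inhibitors weigh the same in it, so *Pik3ip1*, the gene with the fewest reads, contributes most. Its log2 fold change was 0.90, against 0.23 for *Inpp5d*.

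Among all class I catalytic subunits, the share of *Pik3cd* in normalized reads per kilobase averaged 69.8% ± 1.40 in the WT group and 57.9% ± 0.922 in the mutant (mean ± SD, n = 3 each). *Pik3ca* held 14.6% ± 1.02 and 14.5% ± 0.0984. *Pik3cg*, which encodes the p110γ subunit that G protein-coupled receptors activate, went the other way, from 12.2% ± 0.386 to 24.4% ± 0.945. Its normalized reads were 841, 906 and 906 in WT and 1951, 1788 and 1775 in mutant libraries, or 1.05 as a log2 fold change (standard error 0.05, limma adjusted p = 1.20e-10). *Pik3cb*, which encodes p110β, held 3.42% ± 0.433 and 3.15% ± 0.218 and was not called (log2 fold change -0.06, 95% interval -0.25 to 0.14, limma adjusted p = 0.632). *Pik3cd* thus held the largest share of its family in each of the 6 libraries. Shares within a library are relative, so the rise of *Pik3cg* by itself lowers the share of *Pik3cd*.

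**Figure D3:**
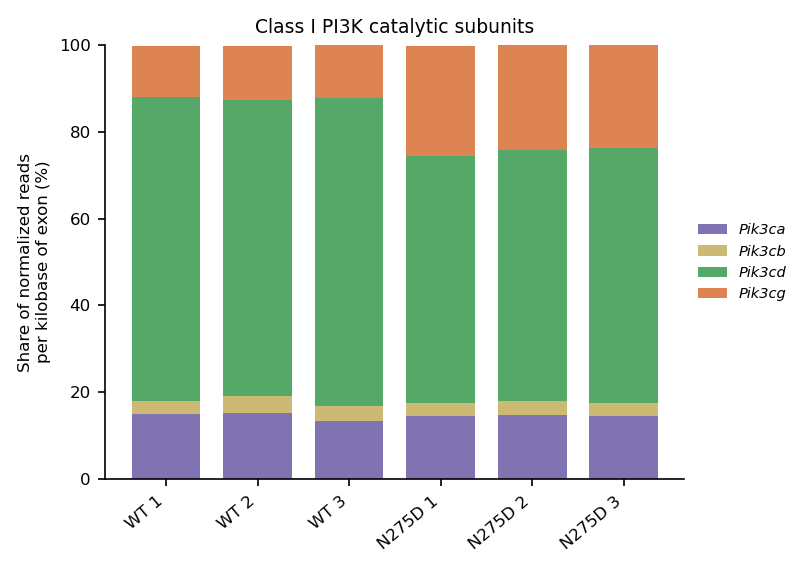
Share of normalized reads per kilobase of exon (percent, from 0 to 100) that each of the class I PI3K catalytic subunits held in each of the 6 libraries. The *Pik3cd* band narrows from 69.8% to 57.9% on average in the mutant as the *Pik3cg* band widens from 12.2% to 24.4%. The bands of a library sum to 100, so a wider band by itself narrows the others.

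The other genes of the pathway were taken from 10 lists by role, with 52 genes in all, of which 51 passed the filter (*Irs1* did not). Of these 51, 29 were called higher and 8 lower by limma, or 56.9% and 15.7%, and 14 were not called. Over all genes tested, 24.7% were called higher and 26.1% lower. The lists were chosen with earlier results known, and their counts by role are descriptions to be read against these shares. The median log2 fold change was 0.25, beside -0.00259 over all genes. Without mutant library 2 or without mutant library 3, 5 genes in place of 8 were called lower, and 27 were called higher. Called at 2-fold were 4 genes, *Pik3cg*, *Gab2*, *Il7r* and *S1pr1*.

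Of the 4 class I regulatory subunits other than *Pik3r1*, 3 were higher. *Pik3r6* and *Pik3r5*, whose products partner p110γ, had log2 fold changes of 0.44 and 0.40 (limma adjusted p = 0.00135 and 4.22e-05). Of the receptors and adaptors that recruit PI3K, 6 of 9 tested were higher and 1 was lower. *Gab2*, a docking adaptor, rose from 36.7 ± 8.10 to 89.7 ± 10.8 normalized reads (mean ± SD, n = 3 each), and *Igf1r*, the receptor of insulin-like growth factor 1, had a log2 fold change of 0.68. The lower gene, named after its value was seen, was *Pik3ap1*, a PI3K adaptor best known in B cells, at -0.37 (limma adjusted p = 7.70e-06). Of the class II and III PI3K genes, 3 of 4 were higher, led by *Pik3c3*, which encodes the VPS34 kinase of autophagy and endosomal sorting, at 0.78, and *Pik3c2b* at 0.30.

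Beside *Inpp5d*, 2 of 4 other phosphoinositide phosphatases were higher and 1 was lower. *Inppl1*, which encodes the related phosphatase SHIP2, went from 814, 734 and 881 normalized reads in WT to 910.5, 963 and 975 in mutant libraries (log2 fold change 0.23, standard error 0.06, limma adjusted p = 0.00551). *Inpp4b*, which acts on the lipid that SHIP1 produces, fell from 3801 ± 315 to 3058 ± 180 (mean ± SD, n = 3 each), or -0.31 as a log2 fold change (standard error 0.06, limma adjusted p = 0.000218). Of 6 further brakes on AKT, 3 were higher and 3 were not called. *Trib3*, a pseudokinase that binds AKT and is also a stress-response gene, had a log2 fold change of 0.92, and *Phlpp1*, an AKT phosphatase, had 0.35 (limma adjusted p = 1.35e-09 and 0.00106).

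Beside *Akt1*, *Akt2* and *Pdpk1*, 2 of 4 AKT-related kinases and mTORC2 subunits were higher and 1 was lower. *Sgk1* and *Sgk3*, related kinases that PDK1 also phosphorylates, had log2 fold changes of 0.57 and -0.35 (limma adjusted p = 0.00902 and 0.0356). *Rictor*, a subunit of the complex that phosphorylates AKT in its hydrophobic motif, had 0.15 (limma adjusted p = 0.00752). AKT substrates divided evenly, with 4 of 10 higher and 4 lower. *Foxo1*, the transcription factor that AKT keeps out of the nucleus, rose from 1202 ± 66.6 to 1586 ± 41.7 normalized reads (log2 fold change 0.40, limma adjusted p = 5.89e-06). Another substrate gene, *Foxo3*, named after its value was seen, was lower (log2 fold change -0.30, limma adjusted p = 5.89e-05). *Tbc1d4*, which encodes a regulator of glucose transporter traffic, had a log2 fold change of 0.32 (limma adjusted p = 0.0356). Among PIP3-binding effectors, 1 of 3 was higher, the T cell kinase gene *Tec*, with a log2 fold change of 0.61. Of 5 transcripts known to be controlled by FOXO1, 4 were higher, beside 24.7% of all genes tested, and *Klf2* was not called. *Il7r*, the interleukin-7 receptor gene, went from 592 ± 31.8 to 1502 ± 65.4 normalized reads, and *S1pr1*, a receptor gene of T cell trafficking, had a log2 fold change of 1.04.

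**Figure D4:**
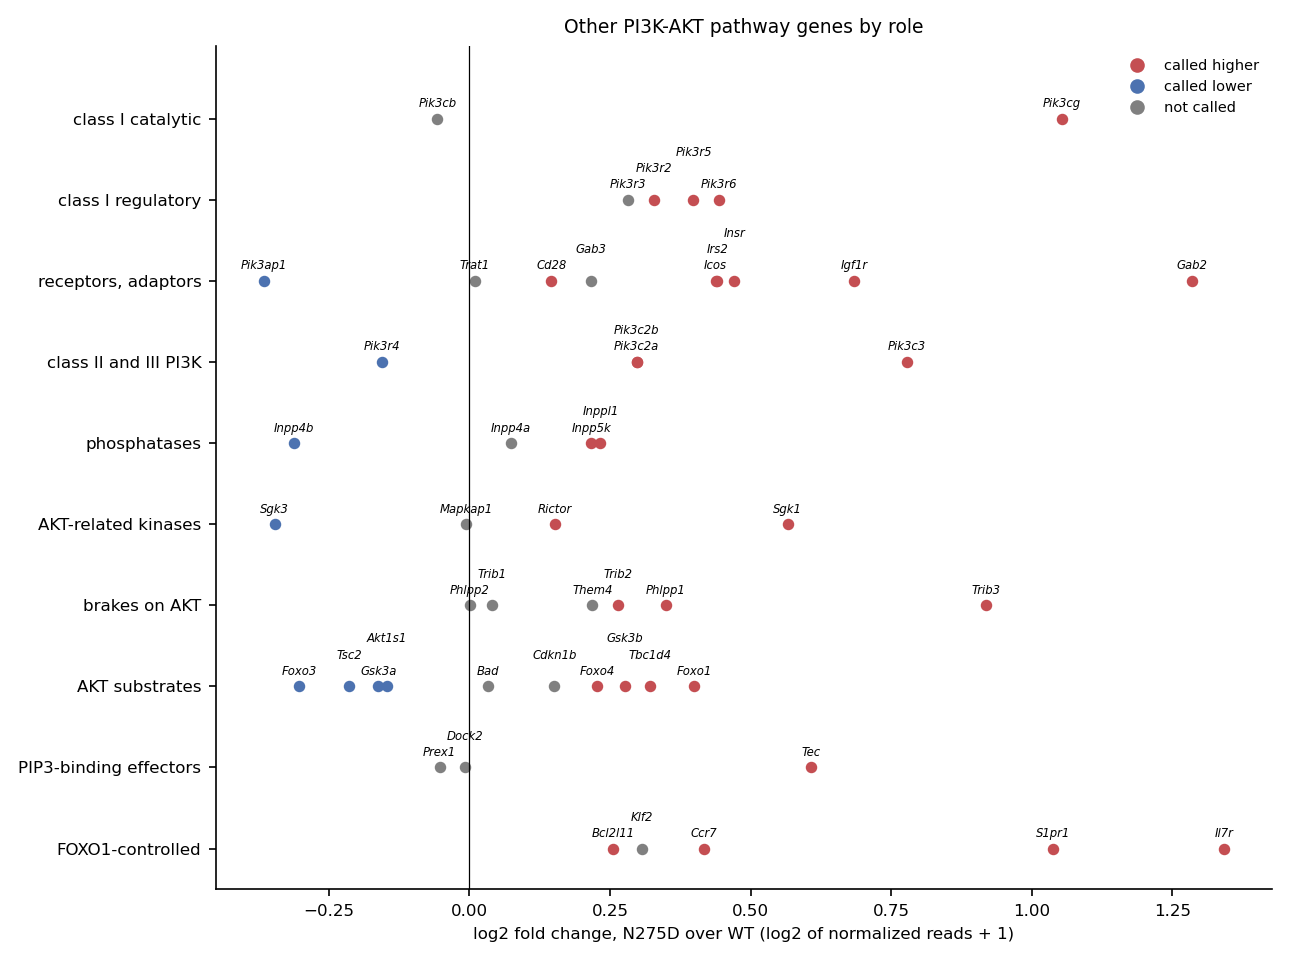
Log2 fold changes (RORγt N275D over WT, on log2 of normalized reads + 1) of the 51 other pathway genes tested, in 10 rows by role, with genes called higher in red, called lower in blue and not called in grey. Most points lie to the right of 0, and those past 1 are *Pik3cg*, *Gab2*, *Il7r* and *S1pr1*.

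By root mean square difference of their log2 profiles over the 6 libraries, each centred on its WT mean, the 3 genes nearest to *Pik3ip1* were *Hbp1* (0.0718), *Spock2* (0.0763) and *Tanc2* (0.0798). Their log2 fold changes were 0.88, 0.89 and 0.96, against 0.90 for *Pik3ip1*. Genes chosen in this way must have fold changes close to that of *Pik3ip1*, so the closeness is not a separate result.

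The libraries held 17659035 to 18510878 reads on genes, and WT library 3 stood farthest from its group; all 5 calls were kept without it. T cell markers summed to 15067 to 15598 normalized reads in WT and 13942 to 13977 in mutant libraries, with *Cd3e* and *Cd4* called lower and *Cd28* higher of 4 tested. Th17 markers summed to 57977 to 62486 and 71325 to 72428, with 3 of 3 called higher. Some markers of other cells moved with genotype and others did not. Of 4 B cell markers tested, 3 were higher in the mutant (*Cd79a*, *Pax5* and *Ebf1*), with sums of 1072 to 1103 in WT and 1570.2 to 1677 in mutant libraries, most of it *Ebf1*. *Ms4a1*, which encodes CD20, was below the filter and at 0 in 2 of 3 WT libraries, with 3.99 to 9.88 normalized reads in mutant libraries. CD8 T and natural killer markers summed to 120 to 142 in WT and 172 to 179 in mutant libraries, with *Cd8b1* called higher of 2 tested, and *Klrb1c* below the filter, at 2.02, 1.01 and 0 normalized reads in WT and 0 in the 3 mutant libraries. Myeloid markers summed to 81.8 to 92.8 and 82.0 to 106, with *Adgre1* called lower of 2 tested. The gamma delta T cell markers looked up, *Trdc* and *Tcrg-C1*, were not in the table. The negative selection before culture removes B, CD8 T and myeloid cells, and the part of remaining other cells in the differences of the 8 genes was not tested.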

How the data were processed

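Th17 cells of 2 genotypes, with 3 RNA-seq libraries each, were grouped by their labels. Per the methods, reads were trimmed, STAR served for alignment to mm10, featureCounts for counting and DESeq2 for the authors' comparison. The labels name a poly-A directional kit, the methods strand-specific DNBSEQ libraries. Values of unit signal, as deposited, are read numbers per gene that the authors scaled by a factor of each library, and 100% of them in each library were whole multiples of that factor, within 1e-06. The authors' deposited log2 fold changes and q-values, and their group averages (a score, since these are rounded to whole numbers), were not used.

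Genes with a mean of at least 10 (11908 of 16244) were tested with limma (version 3.58.1, R 4.3.3; trended prior, 12.0 prior degrees of freedom) on log2(normalized reads + 1), without a block, and called at an adjusted p under 0.05, or also at 2-fold. Ratios used exact permutation tests (scipy 1.17.1). Lengths are unions of protein-coding exons from an annotation of the same build. The 8 genes and all lists were chosen with earlier results of these data known. Some genes of the lists are not reported here, and the counts leave them out. Named are the 8 genes, the 2 largest calls and all 2-fold calls of each list, and genes needed beside a member. Beyond these, *Pik3ap1* and *Foxo3* were named after their values were seen. Replicates differed by 1.32 to 3.05 times counting noise (median chi-square) and were kept as separate libraries. Alternatives included other pseudocounts, filters and scalings, a replicate block, single libraries left out, plus recovered reads in DESeq2 (version 1.42.0) and in edgeR (version 4.0.16).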

Additional observations from a re-analysis of the deposited data

How the results depend on the processing

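*Pik3cd*, *Akt2* and *Inpp5d* kept their calls under all 17 alternatives run, with log2 fold changes of -0.24 to -0.13, -0.28 to -0.20 and 0.20 to 0.27. *Pik3ip1* kept its call in the 16 that tested it (0.73 to 0.99); a mean of at least 100 removed it, so 1 gene was called higher. *Pik3ca* and *Pik3r1* were called in none. *Akt1* kept its call in 12 of 17. *Pdpk1*, not called in any, changed sign under quantile normalization (0.0575) and ranged from -0.0338 to 0.0125 with single libraries left out (0.0125 without N275D library 2). With single libraries left out, 2 of the 8 genes were called higher and 2 to 3 lower, and of the other pathway genes 26 to 29 higher and 5 to 8 lower; DESeq2 called 5 lower. Over all genes, edgeR called 6101 and DESeq2 4917, beside 6056 by limma. The count at 2-fold, 427, was 259 with a pseudocount of 10, 703 with all genes and 162 with a mean of at least 100. The 4 ratios kept their direction in 7 of 7 alternatives each, namely a pseudocount of 10 and single libraries left out. The groups did not overlap in any of the 4, so leaving out 1 library could not reverse the direction. By the length of the longest transcript, chosen after seeing the data, *Pik3cd* held 72.1% of its family in WT. With the replicate block the 5 calls remained (*Akt1* limma adjusted p = 0.0361) and 5727 genes were called. Deviations of same-numbered libraries correlated at -0.05, 0.04 and -0.08. With 3 libraries per group, this cannot show whether the numbers pair the samples. Depth limits *Pik3ip1* most. The causes were not tested.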
